A study of Mus musculus with 2 samples.

Results

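The Id inhibitors (Id1, Id2, Id3 and Id4), the E proteins they bind (Tcf3, Tcf4 and Tcf12) and 3 factors that also act on E proteins or their binding sites (Msc, Twist1 and Twist2) were read on 25 probe sets, the groups of short array probes that each report 1 transcript region. These are all the probe sets of the array whose single gene symbol is one of the 10 names, out of 34945 probe sets with 1 symbol and 18193 genes, and no probe set with several symbols names any of them. The 10 genes were chosen from results of the same arrays, with the difference of Id3 already known. Their differences are therefore a description, without a test.

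C2C12 cells, an established mouse myoblast line that fuses into myotubes in low serum, were grown with 10% fetal bovine serum and then kept for 5 days in 2% horse serum. One group carried the hairpin named shLrrfip1a, directed against Lrrfip1, and the other the control hairpin, which the sample labels spell shLCUI; total RNA of each was read on 1 Affymetrix expression array. With 1 array per group there is no replicate, no p-value and no error of a difference, and whether each line was a clone or a pool is not given in the sources used here. In bulk RNA, fewer cells of a type and less RNA per cell cannot be told apart.

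Id proteins are helix-loop-helix proteins that pair with E proteins but lack the basic region that touches DNA, so the pairs they form cannot bind. E proteins otherwise pair with tissue-restricted factors such as MyoD and myogenin on E-boxes, short sites of the form CANNTG, and switch on muscle genes. Id genes are classical targets of BMP signals carried by SMAD proteins, and high Id levels keep myoblasts from differentiating. Msc (musculin, also called MyoR) and the Twist proteins carry a basic region and oppose MyoD in muscle precursors.

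In the shLrrfip1a array, Id3 read 2.90 times and Id1 1.59 times the control intensity. Id2 was level on both of its brighter probe sets, and Id4 was dim, with probe sets that disagreed. The 12 brighter E protein probe sets differed by -0.18 to 0.37 on the log2 scale, and Msc and the Twist genes by -0.23 to 0.22. No probe set of the 10 genes was 2-fold lower.

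The bases just before the start of 3 of the Id genes are shown because these genes differed in unlike ways: Id3 read higher, Id2 was level, and Id4 was dim. RefSeq promoter entries (GRCm38.p6) were matched by symbol for 7 of the 10 members, and Id1, Tcf4 and Msc had none. Each line holds the 250 bases before the annotated start, read 5′ to 3′ on the strand of the gene. Capitals mark E-boxes (CANNTG), the GC element GGCGCC, and the 5-base element CAGAC or its complement GTCTG. The windows are chr4:136143572-136143821 on the plus strand for Id3, chr12:25096093-25096342 on the minus strand for Id2, and chr13:48260866-48261115 on the plus strand for Id4.
Id3: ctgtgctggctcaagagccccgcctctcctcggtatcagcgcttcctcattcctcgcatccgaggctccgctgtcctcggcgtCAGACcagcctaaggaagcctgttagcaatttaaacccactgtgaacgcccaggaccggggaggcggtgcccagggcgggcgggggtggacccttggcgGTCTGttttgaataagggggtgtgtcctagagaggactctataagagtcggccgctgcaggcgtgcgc
Id2: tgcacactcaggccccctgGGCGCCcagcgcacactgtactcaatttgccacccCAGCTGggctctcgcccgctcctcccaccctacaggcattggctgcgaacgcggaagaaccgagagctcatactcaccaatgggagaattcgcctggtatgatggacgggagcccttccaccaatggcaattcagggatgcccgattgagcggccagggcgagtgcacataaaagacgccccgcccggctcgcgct
Id4: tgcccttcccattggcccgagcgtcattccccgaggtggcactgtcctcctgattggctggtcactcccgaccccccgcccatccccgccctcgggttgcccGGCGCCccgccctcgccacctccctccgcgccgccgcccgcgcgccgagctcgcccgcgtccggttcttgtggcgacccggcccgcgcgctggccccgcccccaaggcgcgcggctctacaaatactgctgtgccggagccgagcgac

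All motifs were searched on both strands of the same 250-base window in 32851 RefSeq promoter entries. The Id3 window held 2 CAGAC elements, a motif present in 42.2% of all entries, and no E-box or GGCGCC. The Id2 window held 1 GGCGCC, present in 9.59% of entries, and 1 E-box with the letters CAGCTG. E-boxes of any kind were in 66.2% of entries and CAGCTG, which is counted among them, in 13% of entries. The Id4 window held 1 GGCGCC, no E-box and no CAGAC. The CCAAT box, present in 33.8% of entries, occurred 3 times before Id2 and 2 times before Id4, and not before Id3. GC content was 62.8% for Id3 and Id2 and 75.6% for Id4, against a median of 52.4% over all entries. These matches are letters in a window; no binding was measured.

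Values are the authors' deposited intensities, on a linear scale. A difference is log2(intensity + 16) in shLrrfip1a minus the same in the control, and it understates changes of dim genes. A probe set passed the level filter when the mean of its 2 log2 values lay above the median of all non-control probe sets, an intensity of 52.4. A gene stands at its brightest probe set, and genes were counted as differing at 2-fold or more, which is 1 on the log2 scale. Of the 10 genes, 8 passed the filter, as did 18 of the 25 probe sets; Id4 and Twist1 did not pass on any probe set. The 2 arrays had medians of 53.5 and 51.4, and the median difference of the 11448 genes that passed was 0.0043. The arrays carry bacterial and phage spike-in controls, and 38 of 42 of these probe sets read lower in shLrrfip1a; scaling to them adds 0.15 to every difference, so that any gene or median between -0.15 and 0 turns positive.

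The target of the hairpin, Lrrfip1, read 375 against 531, 292 against 469 and 108 against 160, that is 70.6%, 62.2% and 67.5% of the control. The 3 differences averaged -0.55 with an SD of 0.09, which is the spread among probe sets and not among cultures, and the knockdown seen at the RNA level was partial.

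Id3 had the largest difference of the 10 genes. Its only probe set read 516 in shLrrfip1a and 178 in the control, a log2 difference of 1.46. Of all genes above the filter, 34 had a larger positive difference, or 0.297%. Among the 10 members, 1 gene (Id3) was at least 2-fold higher and passed the filter, where 0.664% of all genes were; this contrast was used to choose the members, so nothing is read from it. No member gene was at least 2-fold lower, where 0.690% of all genes were. By probe set, 1 of the 18 above the filter was at least 2-fold higher, against 0.621% of all probe sets above it. That probe set is the one of Id3, so nothing is read from this contrast either.

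Id1, like Id3 a classical BMP target, read 344 in shLrrfip1a and 216 in the control on its only probe set. The difference was 0.63, under the 2-fold size, and 216 genes above the filter, or 1.89%, had a larger one. Id1 and Id3 are each read by a single probe set, so no further probe set bears on either value.

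Id2, which also binds members of the retinoblastoma family, was read by 3 probe sets. The brightest read 333 against 331, a difference of 0.0085, and the next 188 against 201, a difference of -0.09. The dimmest read 37.4 against 31.6, below the filter, with a difference of 0.17. Id2 was thus within 0.2 of 0 on each probe set on the deposited scale.

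Id4, the family member best known from neural and mammary precursors, was read by 3 probe sets near or below the array medians. The brightest by mean read 49.4 in shLrrfip1a and 47.3 in the control, a difference of 0.05. The others read 53.6 against 14.7 and 31.4 against 8.64, differences of 1.18 and 0.94, or 3.64 and 3.63 times in intensity. The control values of both lay far below the control array's median of 51.4, so the size depends on the pseudocount: a pseudocount of 1 gave 1.80 and 1.75, and one of 64 gave 0.58 and 0.39. The differences of the 3 probe sets spanned 1.13, and 1.09% of the 4315 genes with at least 3 probe sets had as wide a span, against a median span of 0.30. Without the filter, 2 of the 25 member probe sets were at least 2-fold higher, 1 of Id3 and 1 of Id4, where 0.401% of all probe sets were. The Id3 difference was known when the members were chosen, so nothing is read from this contrast.

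**Figure D1:**
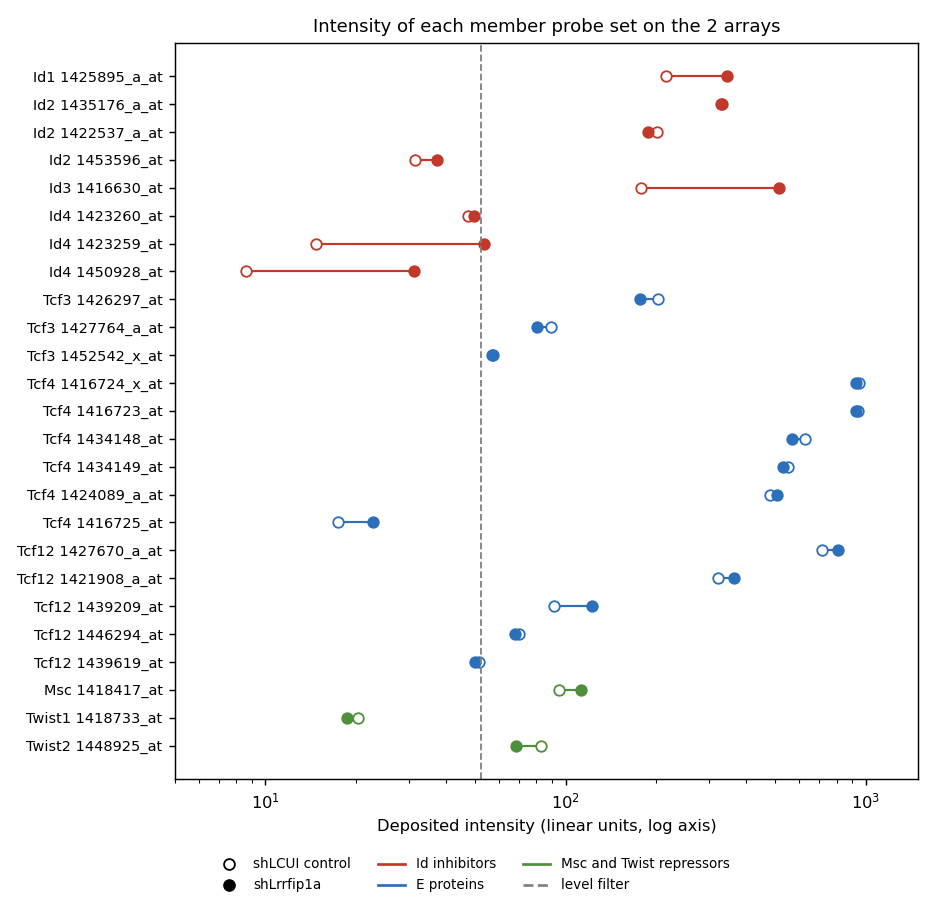
Deposited intensity (log axis) of each of the 25 probe sets in shLrrfip1a (filled) and in the shLCUI control (open), with the level filter at 52.4 as a dashed line. The long connectors belong to Id3 (516 against 178) and to 2 dim Id4 probe sets (53.6 against 14.7 and 31.4 against 8.64), and most E protein pairs nearly coincide.

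The E proteins differed little. Tcf3, which encodes E12 and E47, read 177 in shLrrfip1a and 204 in the control on its brightest probe set, a difference of -0.18. Its other probe sets read 80.1 against 89.2 and 57.2 against 57.0, differences of -0.13 and 0.0051. The lower reading of the brightest probe set kept its sign under each of the 6 other settings tried, and came to -0.03 with spike-in scaling.

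Tcf4, which encodes E2-2 and is distinct from the Wnt effector Tcf7l2 that shares this nickname, was read by 6 probe sets. The 2 brightest read 928 against 949 and 931 against 946, differences of -0.03 and -0.02. A further 3 probe sets above the filter read 568 against 628 (-0.14), 530 against 550.5 (-0.05) and 506 against 480 (0.07). The last, at 22.8 against 17.5, was below the filter and differed by 0.21. The Tcf4 differences spanned 0.35, close to the median span of 0.30 for genes with at least 3 probe sets.

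Tcf12, which encodes HEB, a frequent partner of MyoD and myogenin, read 807 in shLrrfip1a and 716 in the control on its brightest probe set, a difference of 0.17. The next probe sets read 366 against 322 (0.18) and 123 against 91.7 (0.37). The remaining 2 read 67.6 against 70.0 (-0.04) and 49.97 against 51.4 (-0.03), the latter below the filter. The 3 Tcf12 probe sets that were higher kept that sign under all 6 other settings, from 0.12 to 0.52. The 0.37 was the largest difference among the 14 E protein probe sets, and 7.17% of probe sets above the filter had a larger one.

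Of the 12 E protein probe sets above the filter, 5 were higher and 7 lower on the deposited scale, where 50.8% of all such probe sets were higher. The median difference of the 3 genes was -0.03, and it turned to 0.12 with spike-in scaling, where the median of all genes was 0.16.

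Msc read 113 in shLrrfip1a and 94.8 in the control, a difference of 0.22. Twist2, also called Dermo1, read 68.4 against 82.7, a difference of -0.23. Twist1 read 18.7 against 20.4, far below the filter on both arrays, with a difference of -0.07 that turned to 0.09 with spike-in scaling. Each of these repressors has 1 probe set; 17.7% of genes above the filter had a larger difference than Msc, and 16.9% a lower one than Twist2.

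**Figure D2:**
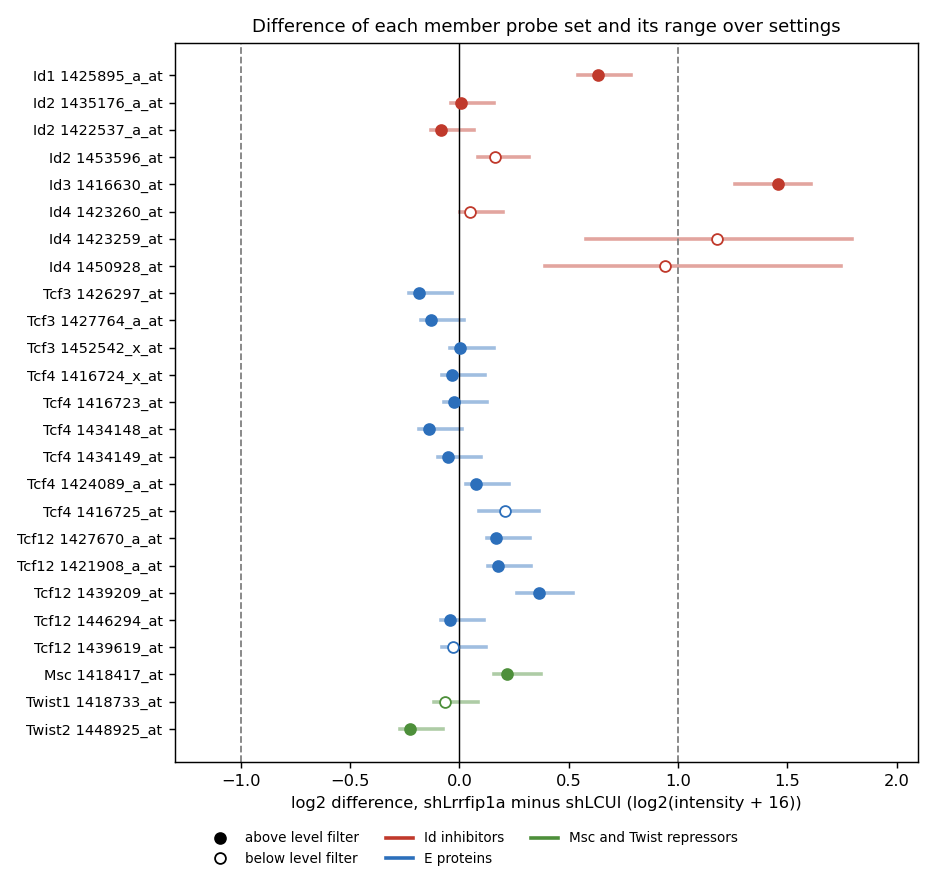
log2 difference, shLrrfip1a minus shLCUI, of each of the 25 probe sets (filled, above the level filter; open, below it), with bars for the lowest and highest value over the main setting and 6 other pseudocounts and scalings; dashed lines mark 2-fold. Id3 stays between 1.26 and 1.61, the 2 discordant Id4 probe sets run from 0.39 to 1.80, and the E protein bars lie between -0.23 and 0.52.

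**Figure D3:**
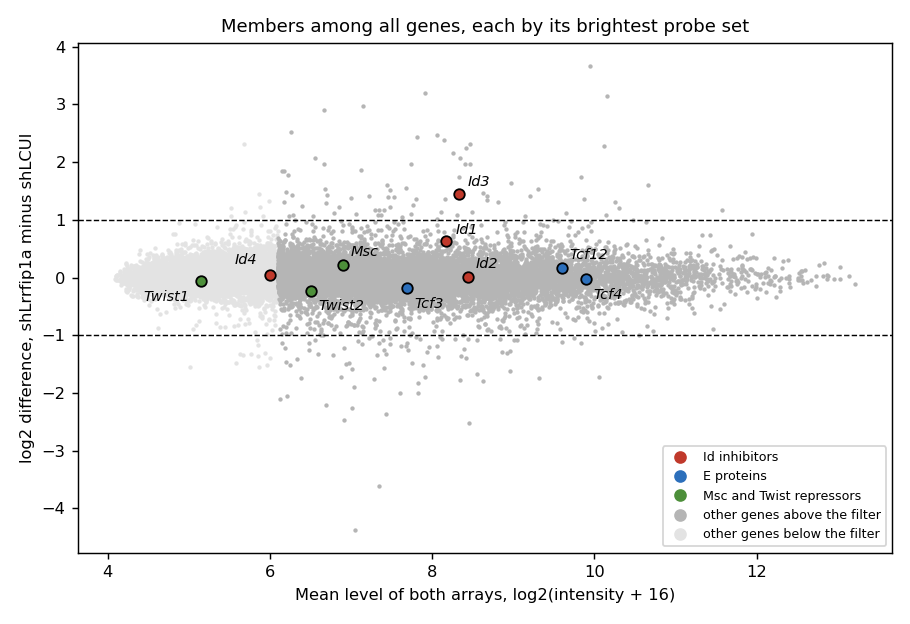
log2 difference against the mean level of both arrays for 18193 genes, each at its brightest probe set (dark grey above and light grey below the level filter), with the 10 members coloured by role and dashed lines at 2-fold. Id3 lies at 1.46 and Id1 at 0.63, and the other members lie between -0.23 and 0.22.

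The myogenic partners that compete with Id proteins for E proteins differed in both directions. Myod1, the determination factor, read 894 against 602.5 (0.56) on its bright probe set; its other probe set was dim (3.92 and 4.65). Myf5, an early determination factor, read 82.8 against 159 (-0.83), while Myog, which drives terminal differentiation, read 2005 against 2612 (-0.38). Myf6 lay below the filter at 27.6 and 32.0. None of the 3 above the filter reached 2-fold, where 0.664% of all genes above it were at least 2-fold higher and 0.690% lower.

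Genes of the E-box network other than these that passed the filter also stayed under 2-fold. Of all genes above it, 0.664% were at least 2-fold higher and 0.690% lower, so nothing is read from this. Of 22 other tissue-restricted and Hes or Hey bHLH factors, 21 were matched and 11 passed the filter, 6 higher and 5 lower, with a median of 0.10. The largest differences there were those of the circadian repressor Bhlhe40 (686 against 1107, -0.68) and of Hes6, which promotes myogenesis (580 against 753, -0.37, and -0.28 on its other probe set). All 6 zinc finger repressors that bind E-boxes passed, 3 higher and 3 lower, with a median of -0.05. Zeb1 read 723 against 1040 (-0.51), with -0.42, 0.06 and 0.32 on its other probe sets, and Snai1 53.1 against 82.3 (-0.51).

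Of 18 cofactors of E proteins and MyoD, 16 passed, 10 higher and 6 lower, with a median of 0.06. The acetyltransferase genes Crebbp (576 against 415, 0.46) and Ep300 (534 against 386, 0.45) differed most. Ep300 has 1 probe set, and the other 3 of Crebbp differed by 0.35, 0.22 and -0.0081. Among 9 genes that set the stability of Id proteins the median was 0.02. The lowest was Cdc27, a subunit of the anaphase-promoting complex (389 against 457, -0.22), with -0.46, -0.10 and -0.02 on its other probe sets. The highest was Usp1, which removes ubiquitin from Id proteins (784 against 703, 0.15), with 0.31 and 0.19 on its other probe sets.

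The BMP pathway, which induces Id genes, was described from the ligand to the target. Of 20 genes listed as ligands and receptors, 18 were matched and 10 passed the filter, 4 higher and 6 lower, with a median of -0.06. The 6 lower include Bmp1 (-0.16), which encodes a protease despite its name, and Gdf11 (-0.16), an activin-like ligand. The ligand Bmp4 read 810 in shLrrfip1a and 484 in the control (0.73). The type I receptor Acvr1 read 707 against 560 (0.33), with 0.33 and 0.39 on its other probe sets. Of 6 SMAD genes, 5 were higher and 1 (Smad3, -0.07) lower, with a median of 0.20, where 50.7% of all genes above the filter were higher. Smad2 and Smad3 mainly carry TGF-beta and activin signals, so these counts cover more than the BMP branch. The largest differences of the 6 were those of Smad2 (315 against 252, 0.30) and Smad9 (71.1 against 55.9, 0.28). For 2 of the genes other probe sets had the opposite sign. Smad4 differed by 0.13 on its brightest probe set and by -0.19 and -0.11 on the others, and the other Smad3 probe sets by 0.20 and 0.07.

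The antagonists of the pathway, most of them secreted, held the widest differences of these lists. Of 16, 15 were matched and 10 passed, 7 higher and 3 lower, with a median of 0.10. Fst, which binds activin and myostatin and also BMPs, read 1375 against 695 (0.97) and, on its other probe set, 1074 against 539 (0.97). Grem1, which binds BMPs, read 283 against 547 (-0.91). Chrdl1, a chordin-like antagonist picked after its values were seen, read 264 against 170 (0.59) and was higher on all 4 of its probe sets, by 0.57 to 0.81.

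Other early targets of BMP and SMAD signals were mixed in direction. Of 16 listed, 14 were matched and 11 passed, 4 higher and 7 lower, with a median of -0.07. The largest differences were those of the corepressor genes Tgif1 (328 against 465, -0.49) and Skil (1126 against 1502, -0.41, with 0.12 on its dimmer probe set). The inhibitory SMAD genes Smad6 (64.9 against 65.6, -0.01) and Smad7 (224 against 262, -0.21), picked after their values were seen, are feedback inhibitors of the pathway. This list shares Hes1, Hey1 and Atoh8 with the bHLH list, Bambi with the antagonists and Smurf2 with the stability list.

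Of 20 genes listed as muscle targets of E-box factors, all passed the filter, 6 higher and 14 lower, with a median of -0.10. None reached 2-fold, where 0.664% of all genes above the filter were at least 2-fold higher and 0.690% lower. Whether each listed gene is driven through an E-box was not tested. The embryonic light chain Myl4 (1482 against 2406, -0.69; -0.10 on its other probe set) and cardiac actin Actc1 (1726 against 2293, -0.41) were lowest. Of all genes above the filter, 50.7% were higher. With spike-in scaling the medians of the muscle targets, zinc finger repressors, BMP ligands and receptors, and BMP targets turned positive, at 0.05, 0.10, 0.09 and 0.08, each below the 0.16 of all genes.

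**Figure D4:**
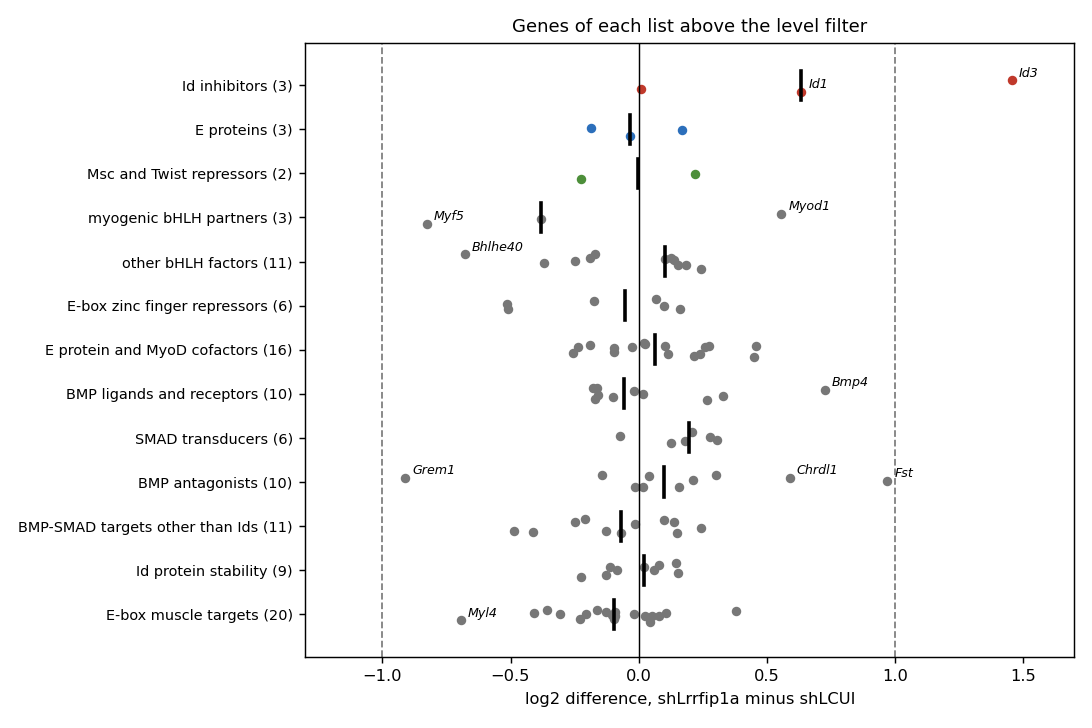
log2 difference of each gene above the level filter in the 3 member groups and 10 pathway lists (number of genes in brackets); black bars are medians and dashed lines mark 2-fold. Id3 is the only point past 2-fold, with Fst at 0.97, Grem1 at -0.91 and Myf5 at -0.83 the next largest.

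The label of differentiated myoblasts was checked against markers. All 8 myotube markers (Myog, Myh3, Acta1, Ckm, Mymk, Des, Tnnt3 and Ttn) passed the filter on both arrays, with differences of -0.38 to 0.38 and summed intensities of 13682 and 14584 in shLrrfip1a and control. Of 6 fibroblast markers 5 passed, 2 higher and 3 lower, with sums of 12605 and 10050. The higher sum in shLrrfip1a rested on Dcn, which read 3497 against 260, and 45.6 against 21.5 on its dim other probe set. Col1a1 read 1384 against 1854 (-0.42, and -0.51 on its other probe set). Pdgfra read 219 against 283 (-0.35), with 0.20 and -0.03 on its other probe sets. Col1a2 read 7380 against 7540 (-0.03) and Thy1 105 against 96.3 (0.11), and Lum was dim (20.4 and 16.5). Adipocyte markers did not pass (sums of 56.5 and 61.7 over 4 genes). The 4 endothelial markers summed to 195 and 115.5; Kdr read 118 against 48.0, and Pecam1, Cdh5 and Tie1 were dim, at 33.6 or less on both arrays. The sums over the other lists were 189 and 157 for osteoblast or chondrocyte, 241 and 236 for leukocyte, 177 and 165 for epithelial and 163 and 185 for neuronal markers. Id1 and Id3 are abundant in endothelium and fibroblasts; the part of such cells in their difference was not tested.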

How the data were processed

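Total RNA of differentiated C2C12 cells was labelled and hybridised to Affymetrix arrays, 1 array for shLrrfip1a and 1 for the shLCUI control, per the labels' protocols. The authors deposited 1 linear intensity per probe set and array (45101 probe sets); how probes were summarised and scaled is not given in the sources used here, and no detection calls came with the values. The number of arrays limits the precision. Gene symbols came from the platform annotation, and the 10 members matched the RefSeq gene table (GRCm38.p6) by gene identifier. Values were taken as log2(intensity + 16) with pandas 2.3.3, numpy 2.4.6 and statsmodels 0.14.6 under Python 3.11.15. Named genes are all member probe sets, the Lrrfip1 probe sets, the myogenic bHLH genes, the markers of the labelled cell type, and in each other list the genes past 2-fold and the 2 with the largest absolute difference. Outside this rule, Bmp1, Gdf11, Chrdl1, Smad3, Smad4, Smad6, Smad7 and the markers of other cell types that are named were picked after their values were seen. No genes of similar pattern were sought, since 2 arrays give a single difference. The members and lists were chosen with earlier results of these data known. The alternatives were pseudocounts of 1 and 64, median centring, quantile normalization, loess (span 0.3), spike-in scaling, no filter or one at the 75th percentile, sizes of 1.5-fold and 3-fold, and the mean over probe sets.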

Additional observations from a re-analysis of the deposited data

How the results depend on the processing

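No paired analysis was possible because there is 1 array per group, and for the same reason no array could be left out. Under the 6 other pseudocounts and scalings, Id3 stayed past 2-fold (1.26 to 1.61) and Id1 stayed under it (0.54 to 0.78). The count of member genes at least 2-fold higher, 1, was 2 at a size of 1.5-fold and 0 at 3-fold, and the count of member probe sets, 1, was likewise 2 at 1.5-fold and 0 at 3-fold. Without the level filter the probe set count was 2 and the median of the Id genes 0.34, against 0.63, because Id4 entered. For the median Id4 stood at its brightest probe set (0.05), and for the count it added the probe set at 1.18. The Id4 probe set at 1.18 came to 0.58 with a pseudocount of 64, and the one at 0.94 to 1.75 with a pseudocount of 1 and to 1.09 with spike-in scaling. In 11 of the 25 member probe sets the sign turned under at least 1 setting, each from a difference of 0.14 or less in size. With the 75th percentile filter the median of the myogenic bHLH genes came to 0.09 and that of the other bHLH factors to -0.25, over fewer genes. Without detection calls, no dim member can be declared absent.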

Other observations

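Of 6 markers of undifferentiated or reserve myoblasts, 4 passed the filter, 1 higher and 3 lower, with a median of -0.27. The lowest of these was Myf5 (82.8 against 159, -0.83). Pax7, the satellite cell factor, read 22.6 in shLrrfip1a and 70.4 in the control, and 17.7 against 57.7 on its other probe set, differences of -1.16 and -1.13 with mean levels below the filter. Cd34, a surface marker of quiescent satellite cells, was the 1 that was higher (386 against 270, 0.49). Pax3 was level and dim (44.2 and 43.1), and the proliferation genes Mki67 (749 against 881, -0.23) and Top2a (991 against 1238, -0.32) were lower on their brightest probe sets.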
